A study of Mus musculus with 9 samples.

Results

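The interferon response genes are a set of 35 genes, chosen by name as known products of interferon signalling, and all 35 were found among the 54838 genes of the deposited expression matrix. Expression was measured by RNA sequencing in corona radiata cells, the innermost cumulus granulosa cells around the oocyte, of adult mice. The mice had received PMSG, a gonadotropin with follicle-stimulating action, and hCG, which triggers ovulation. There were 3 libraries for each of 3 genotypes: mice without both liver X receptors that carry the transgene TG-AMH-LXRb (transgenic), mice without both liver X receptors (LXR DKO) and wild type mice (WT). These receptors are oxysterol-activated transcription factors of sterol handling. All groups shared the tissue, the age class and the hormone treatment, which the labels extend with the unexplained term J4. The transgenic mice lack both receptors too, so LXR DKO differs from them by the transgene and WT by the transgene and the knockout. The labels name neither the strain nor the promoter that drives the transgene, nor the part of each receptor gene that was deleted. Whether each library is a different animal is not stated, and the p-values therefore cover only the variation among these samples, part or all of which may be technical.

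Cells sense viral or misplaced nucleic acids with receptors such as RIG-I and MDA5 and then release interferons. Type I interferons bind a receptor of IFNAR1 and IFNAR2, whose kinases activate a factor complex that holds STAT2 and IRF9 and binds the interferon stimulated response element in promoters. Type II interferon has a receptor of its own, and genes that respond to it carry the gamma activated site. The induced proteins block viral RNA and its translation, tag proteins with ISG15, and cut and load peptides for antigen presentation. Cumulus cells are known to express innate immune genes around ovulation.

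Reads in genes, worked back from the RPKM values (reads per kilobase of exon, scaled to library size), numbered 29859221 to 44162958 per library. At these depths 3 reads in a gene with 1 kb of exons are 0.0638 to 0.0965 RPKM. The knocked-out genes followed the labels, in that both were lower in every transgenic and LXR DKO library than in WT. The part of the transgene in the values of the LXR beta gene was not tested. Nr1h2, which encodes LXR beta, lay between 4.83 and 6.70 RPKM in transgenic, between 2.85 and 3.57 RPKM in LXR DKO and between 39.7 and 45.7 RPKM in WT libraries. Nr1h3, which encodes LXR alpha, lay between 0.395 and 0.819 RPKM in transgenic, between 0.713 and 1.08 RPKM in LXR DKO and between 3.50 and 5.72 RPKM in WT libraries. Of 12 markers of cumulus and granulosa cells none was at 0 in 3 or more libraries, and their summed level was 550.4 to 733 RPKM in transgenic, 502 to 659 RPKM in LXR DKO libraries and 997 to 1214 RPKM in WT libraries. Limma called 4 of the 11 tested lower in LXR DKO minus WT and 5 lower in transgenic minus WT. Of all tested genes 7.12% and 6.72% were called lower in these comparisons. Markers of other cells were present as well and are given below. In bulk samples, fewer cells of a type and less RNA per cell cannot be told apart.

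Of the 35 members, 30 passed the filter of at least 1 RPKM in at least 3 of the 9 libraries and were tested with limma, with Benjamini-Hochberg adjustment over 16422 genes and a threshold of 0.05. Ifit2, Oas2, Oas3, Mx1 and Ifi44 did not pass and were not tested in this fit. With no filter, where all 37863 genes with a value were fitted, Oas3 was past the threshold in LXR DKO minus WT. No member passed through 1 genotype alone. In LXR DKO minus WT 2 of the 30 tested members rose, Irf1 and Parp14, and none fell, against 3.47% of all tested genes higher and 7.12% lower. In transgenic minus LXR DKO limma with Benjamini-Hochberg adjustment called 0 of the 30, against 0.0548% of all tested genes higher and 0.0609% lower (0.116% in either direction). At an unadjusted p under the threshold limma called 0 members there too, against 4.71% of all tested genes higher and 3.39% lower. In transgenic minus WT 5 of the 30 rose, Irf1, Parp14, Parp9, Cmpk2 and Ifih1, and none fell, against 5.15% of all tested genes higher and 6.72% lower. The last comparison shares its libraries with the other two, so the 3 are not independent of each other.

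Most tested members had a log2 fold change above 0 in each comparison. The log2 fold change was above 0 for 25 of the 30 tested members in LXR DKO minus WT, against 52.5% of all tested genes, with a median of 0.42 over the members and 0.02 over all tested genes. In transgenic minus LXR DKO 25 of the 30 were above 0, against 53.3% of all tested genes, and the median was 0.25 over the members and 0.01 over all tested genes. In transgenic minus WT 28 of the 30 were above 0, against 52% of all tested genes, with a median of 0.64 over the members and 0.01 over all tested genes. All libraries of LXR DKO were above all of WT for 6 of the 30 tested members, against 13.1% of all tested genes, all of transgenic above all of LXR DKO for 3, against 11.3%, and all of transgenic above all of WT for 12, against 16.8%. The members varied together across libraries, as described further on, so these counts are not counts of independent events. The plot of the fold changes shows their standard errors beside their sizes.

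**Figure D1:**
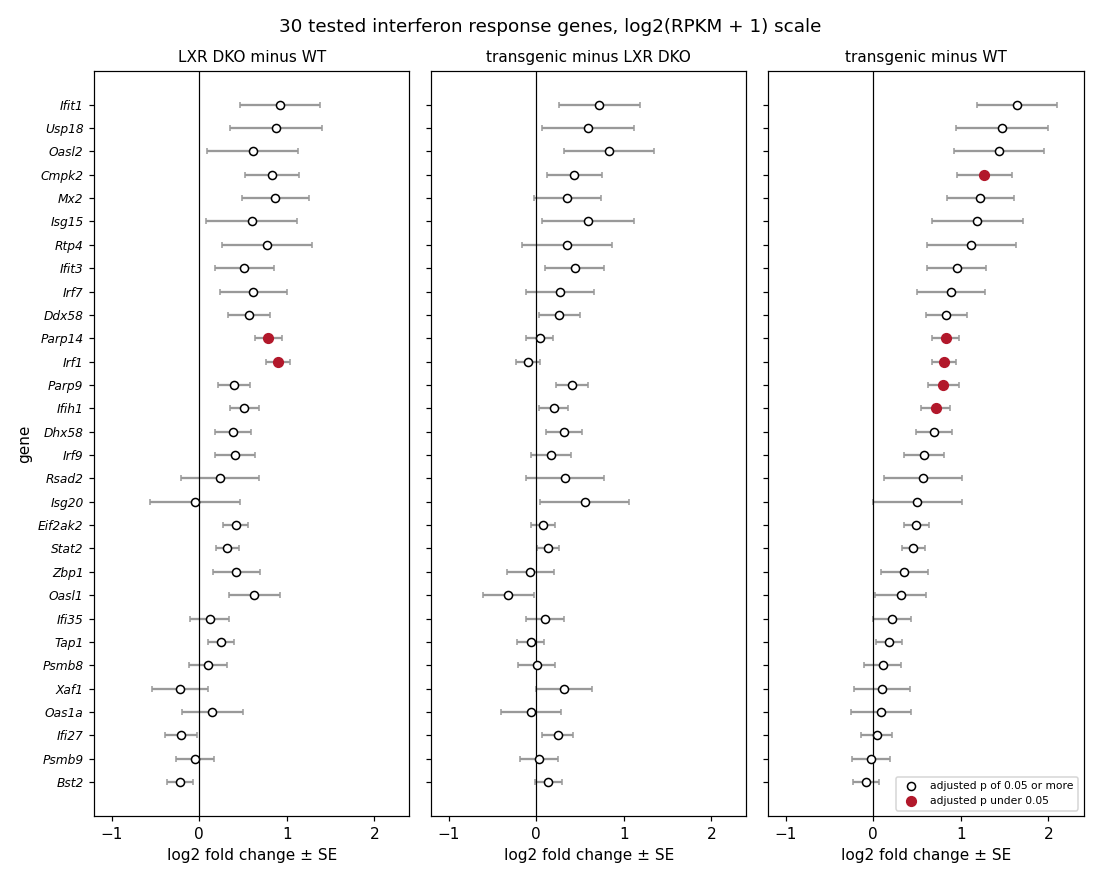
Log2 fold change with its standard error (limma, log2(RPKM + 1) scale) of the 30 tested interferon response genes in the 3 comparisons, in the order of transgenic minus WT. Filled points passed an adjusted p of 0.05, which were 2 genes in LXR DKO minus WT, 0 in transgenic minus LXR DKO and 5 in transgenic minus WT; genes with large fold changes such as Ifit1 and Usp18 also had wide errors.

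Promoters of members past the threshold are shown to place the binding motifs of the pathway. RefSeq promoter windows (GRCm38.p6, 250 bases before to 50 bases after the start) matched 25 of the 35 members. Dhx58, Ifi27, Mx1, Mx2, Oas2, Parp14, Parp9, Rtp4, Usp18 and Zbp1 were not matched. Both strands were searched for the core of the interferon stimulated response element, GAAANNGAAA, and for the gamma activated site, TTCNNNGAA, which reads the same on either strand. A site of one motif may overlap a site of the other, and a window can hold both. Some members have more than 1 window, and the 25 matched members have 30. The first motif was in 11 of the 25 matched members (44%) and in 11 of their 30 windows, against 3.44% of the 32851 windows of all genes. The second motif was in 8 of the 25 members (32%) and in 8 of their 30 windows, against 8.30% of all windows. A match is a run of letters and not a measured binding site. Below are the 250 bases before the start of the 3 members past the threshold that matched and of Isg15, which was added after its values were seen because it holds the first motif 3 times, with motif letters in capitals.
Irf1, chr11:53769764-53770013, plus strand: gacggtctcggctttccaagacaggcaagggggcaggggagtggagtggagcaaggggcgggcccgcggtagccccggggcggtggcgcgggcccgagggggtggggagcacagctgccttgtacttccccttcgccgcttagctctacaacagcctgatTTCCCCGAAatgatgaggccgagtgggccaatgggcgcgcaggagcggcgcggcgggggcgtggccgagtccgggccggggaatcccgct
Cmpk2, chr12:26468965-26469214, plus strand: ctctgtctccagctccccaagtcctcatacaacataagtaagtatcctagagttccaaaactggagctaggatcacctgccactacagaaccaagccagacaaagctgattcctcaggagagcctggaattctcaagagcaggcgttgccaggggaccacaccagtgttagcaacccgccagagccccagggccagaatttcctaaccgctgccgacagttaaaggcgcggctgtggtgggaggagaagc
Ifih1, chr2:62646256-62646505, minus strand: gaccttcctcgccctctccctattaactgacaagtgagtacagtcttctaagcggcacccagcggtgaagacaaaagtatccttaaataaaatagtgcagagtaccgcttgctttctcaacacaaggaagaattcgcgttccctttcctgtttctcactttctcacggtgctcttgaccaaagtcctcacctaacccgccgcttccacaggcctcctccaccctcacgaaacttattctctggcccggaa
Isg15, chr4:156200819-156201068, minus strand: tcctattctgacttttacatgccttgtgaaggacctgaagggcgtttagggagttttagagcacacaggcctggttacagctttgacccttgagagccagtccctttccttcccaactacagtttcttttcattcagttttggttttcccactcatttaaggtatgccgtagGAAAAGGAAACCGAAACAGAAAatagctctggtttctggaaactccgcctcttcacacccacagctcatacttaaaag
The Irf1 window holds a gamma activated site, TTCCCCGAA, from 90 to 82 bases before the start, and no response element core. Irf1 has another RefSeq window, in which neither motif was found. The Cmpk2 window holds neither motif. The Ifih1 window holds no motif before the start and 1 response element core, GAAACAGAAA, on bases 33 to 42 after it. The Isg15 window holds 3 overlapping response element cores between 78 and 57 bases before the start. The other members with the response element core were Bst2, Ddx58, Eif2ak2, Ifit1, Ifit3, Oas1a, Oas3, Rsad2 and Stat2. The other members with a gamma activated site were Bst2, Eif2ak2, Ifi35, Ifit2, Isg20, Oas1a and Psmb8.

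Among the 4 transcription factors of the response, Irf1 passed the threshold in 2 comparisons. Irf1, an interferon regulatory factor that is itself induced by interferon (ENSMUSG00000018899, mm10 chr11:53770014-53778374, plus strand), measured 9.34, 10.4 and 11.8 RPKM in transgenic, 11.1, 12.0 and 10.7 RPKM in LXR DKO libraries and 4.52, 5.58 and 6.76 RPKM in WT libraries. Every transgenic and every LXR DKO library lay above every WT library, and the transgenic and LXR DKO libraries overlapped. Irf1 averaged 11.2 ± 0.664 RPKM in LXR DKO libraries and 5.62 ± 1.12 RPKM in WT (SD, n = 3 each), and rose by 0.90 ± 0.14 on the log2 scale (SE, limma, adjusted p = 0.00558). It averaged 10.5 ± 1.25 RPKM in transgenic (SD, n = 3) and rose against WT by 0.81 ± 0.14 (limma, adjusted p = 0.00928). Transgenic minus LXR DKO was -0.09 ± 0.14 (limma, adjusted p = 0.907). These 2 calls stood in each of the 18 alternative fits, with log2 fold changes of 0.78 to 1.03 for LXR DKO minus WT and 0.68 to 0.93 for transgenic minus WT. Irf1 shares 135 exon bases with Gm17334 on the opposite strand, where reads of the pair cannot be separated without the strand. The gamma activated site shown in the Irf1 promoter is the only motif match before the start in the 3 promoters of members past the threshold that were matched.

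Irf9, the DNA-binding partner of STAT2 and the most abundant factor of the 4 by mean RPKM, measured 13.9, 18.7 and 12.8 RPKM in transgenic, 14.3, 13.2 and 12.0 RPKM in LXR DKO libraries and 6.28, 11.8 and 12.1 RPKM in WT libraries. Only WT 1 stood well below the rest, and WT 3 lay within the LXR DKO range. Irf9 differed by 0.41 ± 0.23 in LXR DKO minus WT, 0.17 ± 0.23 in transgenic minus LXR DKO and 0.58 ± 0.23 in transgenic minus WT (limma, adjusted p = 0.300, 0.895 and 0.129). Stat2, its partner, which carries the activation domain, measured 10.5, 12.1 and 9.12 RPKM in transgenic, 10.6, 8.83 and 9.16 RPKM in LXR DKO libraries and 6.50, 8.56 and 7.26 RPKM in WT libraries. Its WT libraries were below all others, but transgenic minus WT, at 0.45 ± 0.13, missed the threshold (limma, adjusted p = 0.0548). Irf7, the factor that amplifies type I interferon genes, measured 13.7, 21.9 and 9.81 RPKM in transgenic, 15.3, 11.2 and 9.36 RPKM in LXR DKO libraries and 3.63, 9.16 and 11.1 RPKM in WT libraries. The 3 genotypes of Irf7 overlapped, and transgenic minus WT was 0.89 ± 0.39 (limma, adjusted p = 0.159).

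Among the sensors of viral RNA, Ifih1 passed the threshold in 1 comparison. Ifih1, which encodes MDA5 (ENSMUSG00000026896, mm10 chr2:62595798-62646255, minus strand), measured 2.49, 3.38 and 2.52 RPKM in transgenic, 2.51, 2.34 and 2.06 RPKM in LXR DKO libraries and 0.832, 1.62 and 1.57 RPKM in WT libraries. Every transgenic and LXR DKO library was above every WT library. Ifih1 averaged 2.80 ± 0.506 RPKM in transgenic and 1.34 ± 0.441 RPKM in WT (SD, n = 3 each), and rose by 0.71 ± 0.16 (limma, adjusted p = 0.0296). LXR DKO minus WT, at 0.51 ± 0.16, missed the threshold (limma, adjusted p = 0.0840). The call in transgenic minus WT was lost without WT 1, without any 1 of the transgenic libraries and in 3 other alternatives, with an adjusted p of up to 0.0990.

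Ddx58, which encodes RIG-I and was the most abundant sensor, measured 7.83, 11.0 and 6.50 RPKM in transgenic, 7.71, 7.05 and 5.56 RPKM in LXR DKO libraries and 2.82, 5.69 and 4.52 RPKM in WT libraries. The transgenic libraries were all above WT, while LXR DKO 3 lay below WT 2. Ddx58 differed by 0.57 ± 0.24 in LXR DKO minus WT, 0.26 ± 0.24 in transgenic minus LXR DKO and 0.83 ± 0.24 in transgenic minus WT (limma, adjusted p = 0.165, 0.820 and 0.0534). Dhx58, which encodes LGP2, a regulator of RIG-I and MDA5, measured 2.57, 3.24 and 2.73 RPKM in transgenic, 2.10, 2.01 and 2.14 RPKM in LXR DKO libraries and 0.680, 1.51 and 2.15 RPKM in WT libraries. Its transgenic libraries lay above all others, and WT 3 was level with LXR DKO. Zbp1, a sensor of Z-form nucleic acid, lay between 0.630 and 1.49 RPKM in transgenic, between 0.547 and 1.75 RPKM in LXR DKO and between 0.200 and 0.994 RPKM in WT libraries, with overlap between all genotypes.

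Of the 4 genes of the ISG15 system and of ADP-ribosylation, both ADP-ribosyltransferase family genes passed the threshold. Parp14, which acts with STAT proteins (ENSMUSG00000034422, mm10 chr16:35832874-35871544, minus strand), measured 1.66, 2.17 and 1.63 RPKM in transgenic, 1.57, 1.62 and 2.04 RPKM in LXR DKO libraries and 0.300, 0.801 and 0.694 RPKM in WT libraries. Its WT libraries were all below 1 RPKM and all others above it. Parp14 averaged 1.74 ± 0.257 RPKM in LXR DKO libraries and 0.599 ± 0.264 RPKM in WT (SD, n = 3 each), and rose by 0.79 ± 0.16 (limma, adjusted p = 0.0167). It averaged 1.82 ± 0.302 RPKM in transgenic (SD, n = 3) and rose against WT by 0.83 ± 0.16 (limma, adjusted p = 0.0149). At these low values a pseudocount of 1 understates the fold, and 110 exon bases are shared with Gm49730 on the same strand. The call in LXR DKO minus WT was lost without LXR DKO 3, with no filter and in a fit of the 2 genotypes alone (adjusted p up to 0.0724 in limma), and that in transgenic minus WT was lost without transgenic 2 (limma, adjusted p = 0.0570).

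Parp9, the partner of the ubiquitin ligase DTX3L (ENSMUSG00000022906, mm10 chr16:35938470-35972605, plus strand), measured 12.0, 15.9 and 10.5 RPKM in transgenic, 9.96, 9.09 and 8.72 RPKM in LXR DKO libraries and 5.15, 8.23 and 7.35 RPKM in WT libraries. The 3 genotypes did not overlap, in the order transgenic, LXR DKO, WT from high to low. All of LXR DKO lay above all of WT in 13.1% of all tested genes, and all of transgenic above all of LXR DKO in 11.3%. Parp9 averaged 12.8 ± 2.80 RPKM in transgenic and 6.91 ± 1.59 RPKM in WT (SD, n = 3 each), and rose by 0.80 ± 0.18 (limma, adjusted p = 0.0264). LXR DKO minus WT was 0.39 ± 0.18 and transgenic minus LXR DKO was 0.41 ± 0.18 (limma, adjusted p = 0.201 and 0.618). The call was lost without WT 1, without transgenic 1, without transgenic 2 and in 3 other alternatives, with an adjusted p of up to 0.0797. The exons of Parp9 share 458 bases with Dtx3l on the opposite strand, so its reads cannot be separated from those of Dtx3l there.

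Usp18, the protease that removes ISG15 and restrains the type I receptor, and the most abundant of these 4 genes, measured 17.6, 19.9 and 12.4 RPKM in transgenic, 14.3, 10.5 and 7.67 RPKM in LXR DKO libraries and 1.66, 5.30 and 13.6 RPKM in WT libraries. WT 3 overlapped both other genotypes while WT 1 was far below them. Usp18 differed by 0.88 ± 0.53 in LXR DKO minus WT, 0.59 ± 0.53 in transgenic minus LXR DKO and 1.47 ± 0.53 in transgenic minus WT (limma, adjusted p = 0.332, 0.817 and 0.103). Isg15, the ubiquitin-like modifier whose promoter is shown above, measured 12.6, 20.0 and 7.13 RPKM in transgenic, 12.7, 7.39 and 4.95 RPKM in LXR DKO libraries and 1.83, 5.50 and 9.67 RPKM in WT libraries. Its genotypes overlapped, and transgenic minus WT was 1.19 ± 0.52 (limma, adjusted p = 0.164).

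Of the 7 other antiviral effectors, Cmpk2 passed the threshold. Cmpk2, a mitochondrial nucleotide kinase (ENSMUSG00000020638, mm10 chr12:26469204-26479837, plus strand), measured 7.29, 6.07 and 4.86 RPKM in transgenic, 6.16, 3.60 and 3.22 RPKM in LXR DKO libraries and 0.933, 1.86 and 3.45 RPKM in WT libraries. The transgenic libraries were above WT, while LXR DKO 3 was just below WT 3. Cmpk2 averaged 6.07 ± 1.22 RPKM in transgenic and 2.08 ± 1.27 RPKM in WT (SD, n = 3 each), and rose by 1.27 ± 0.31 (limma, adjusted p = 0.0348). LXR DKO minus WT was 0.83 ± 0.31 (limma, adjusted p = 0.127). The call in transgenic minus WT stood in 9 of the 18 alternatives and was lost, among others, without WT 1, without WT 2, without LXR DKO 2 and without each transgenic library, with an adjusted p of up to 0.110.

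**Figure D2:**
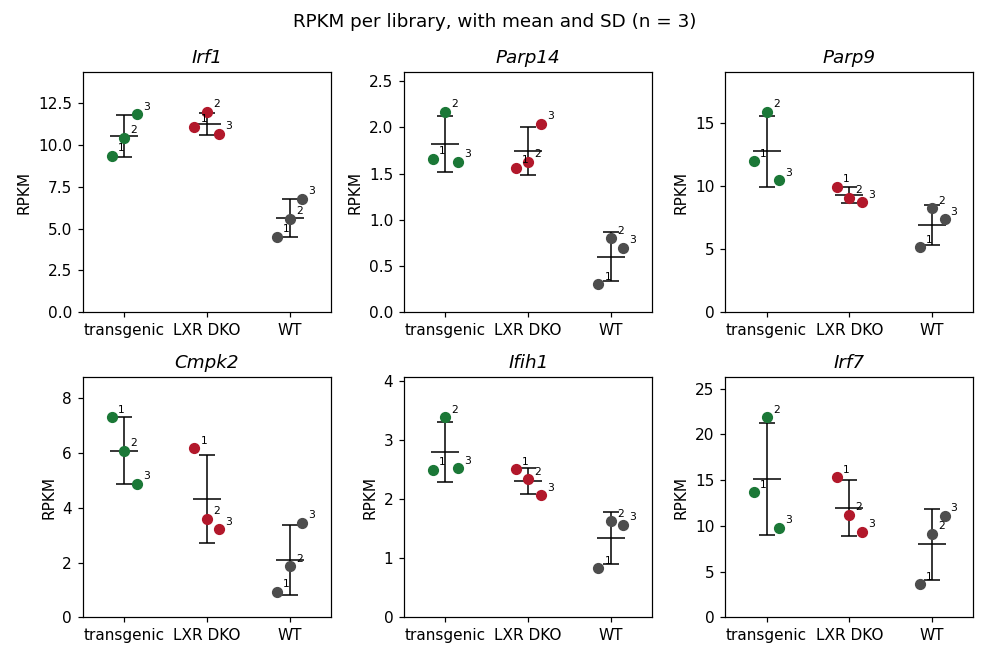
RPKM of the 5 members past the threshold in any comparison, and of Irf7 for contrast, per library (points, with the replicate number) with the mean and SD of 3 libraries. Irf1 and Parp14 lay higher in all transgenic and LXR DKO libraries than in WT. The genotypes did not overlap for Parp9, which passed the threshold in transgenic minus WT only, and they overlapped for Irf7.

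Rsad2, which encodes the antiviral enzyme viperin and lies 12752 bases from Cmpk2, measured 1.70, 1.67 and 0.598 RPKM in transgenic, 1.50, 0.979 and 0.174 RPKM in LXR DKO libraries and 0.00524, 0.168 and 2.02 RPKM in WT libraries. WT 1 held 1 read of Rsad2 and WT 3 held 411 reads, the highest RPKM of all 9 libraries. Mx2, a dynamin-like GTPase, measured 2.58, 5.59 and 1.72 RPKM in transgenic, 3.64, 2.10 and 1.14 RPKM in LXR DKO libraries and 0.245, 0.867 and 1.17 RPKM in WT libraries. Its transgenic libraries were above WT, with a log2 fold change of 1.22 ± 0.38 (limma, adjusted p = 0.0710). Eif2ak2, the RNA-activated kinase PKR that stops translation, lay between 6.59 and 9.22 RPKM in transgenic, between 6.49 and 7.73 RPKM in LXR DKO and between 4.50 and 6.12 RPKM in WT libraries, with WT below both others. Transgenic minus WT was 0.49 ± 0.14 for Eif2ak2 (limma, adjusted p = 0.0546).

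Bst2, the membrane protein tetherin and the member with the highest mean RPKM, measured 184, 221 and 159 RPKM in transgenic, 193, 176 and 143 RPKM in LXR DKO libraries and 189, 219 and 185 RPKM in WT libraries. The genotypes overlapped, and Bst2 differed by -0.22 ± 0.15 in LXR DKO minus WT, 0.14 ± 0.15 in transgenic minus LXR DKO and -0.08 ± 0.15 in transgenic minus WT (limma, adjusted p = 0.401, 0.867 and 0.749). Isg20, an RNA exonuclease, measured 23.2, 20.8 and 23.1 RPKM in transgenic, 11.7, 20.9 and 13.5 RPKM in LXR DKO libraries and 7.67, 10.9 and 42.3 RPKM in WT libraries. WT 3 alone was above all transgenic libraries for Isg20. Mx1, the other dynamin-like GTPase, stayed below 1 RPKM throughout, at 0.302, 0.731 and 0.187 RPKM in transgenic, 0.309, 0.292 and 0.145 RPKM in LXR DKO libraries and 0.0180, 0.171 and 0.185 RPKM in WT libraries.

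The Ifit proteins bind viral RNA ends and block translation. Ifit1, the most abundant of the 3 Ifit members, measured 4.47, 6.86 and 4.35 RPKM in transgenic, 5.42, 2.54 and 1.25 RPKM in LXR DKO libraries and 0.265, 0.600 and 2.72 RPKM in WT libraries. Its transgenic libraries were above WT, and LXR DKO overlapped both. Ifit1 differed by 0.92 ± 0.46 in LXR DKO minus WT, 0.72 ± 0.46 in transgenic minus LXR DKO and 1.64 ± 0.46 in transgenic minus WT (limma, adjusted p = 0.241, 0.751 and 0.0510). The last was the largest fold change of any tested member on the log2(RPKM + 1) scale and passed the threshold in 3 of the alternatives. On the scale of reads, with voom, it was 2.70 for Ifit1 and 3.06 for Rsad2, neither past the threshold (adjusted p = 0.0581 and 0.235). Ifit3 measured 0.792, 2.65 and 2.79 RPKM in transgenic, 1.41, 1.08 and 0.997 RPKM in LXR DKO libraries and 0.0781, 0.402 and 1.27 RPKM in WT libraries, with overlap between genotypes. Ifit3 has a near-identical copy, Ifit3b, and how reads of the pair were shared is not known. Ifit2 stayed below 0.230 RPKM in every library, with transgenic libraries at 0.203 to 0.229 RPKM above WT libraries at 0.0694 to 0.152 RPKM.

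The oligoadenylate synthetases make the signal that activates RNase L. Oasl2, an oligoadenylate synthetase-like gene and the most abundant of this role, measured 8.01, 14.2 and 11.1 RPKM in transgenic, 5.66, 7.71 and 4.12 RPKM in LXR DKO libraries and 0.930, 3.30 and 9.09 RPKM in WT libraries. Transgenic was above LXR DKO in every library, but WT 3 lay among the transgenic libraries. Oasl2 differed by 0.61 ± 0.51 in LXR DKO minus WT, 0.83 ± 0.51 in transgenic minus LXR DKO and 1.44 ± 0.51 in transgenic minus WT (limma, adjusted p = 0.506, 0.743 and 0.103). Oas1a measured 3.88, 5.75 and 6.36 RPKM in transgenic, 4.79, 6.64 and 5.21 RPKM in LXR DKO libraries and 2.53, 4.51 and 9.34 RPKM in WT libraries, with the lowest and the highest value both in WT. Close copies of Oas1a lie in the same cluster, so its reads are uncertain. Oasl1 lay between 0.983 and 2.22 RPKM in transgenic, between 1.44 and 3.64 RPKM in LXR DKO and between 0.557 and 1.61 RPKM in WT libraries. Oas2 and Oas3 were below the filter, and their WT libraries lay below all others. Oas2 lay between 0.737 and 0.861 RPKM in transgenic, between 0.686 and 1.43 RPKM in LXR DKO and between 0.286 and 0.587 RPKM in WT libraries. Oas3 lay between 0.180 and 0.337 RPKM in transgenic, between 0.307 and 0.380 RPKM in LXR DKO and between 0.0771 and 0.145 RPKM in WT libraries. With no filter Oas3 rose by 0.30 ± 0.05 in LXR DKO minus WT (limma, adjusted p = 0.0359), where 2.73% of all genes fitted were past the threshold in either direction, and transgenic minus WT was 0.18 ± 0.05 (limma, adjusted p = 0.131).

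Of the other induced genes, Ifi27, a small mitochondrial membrane protein gene and the most abundant of the role, measured 174, 211 and 165 RPKM in transgenic, 161, 170.0 and 133 RPKM in LXR DKO libraries and 135, 196 and 212 RPKM in WT libraries. Like Bst2 it overlapped between all genotypes, with -0.21 ± 0.18 in LXR DKO minus WT, 0.24 ± 0.18 in transgenic minus LXR DKO and 0.04 ± 0.18 in transgenic minus WT (limma, adjusted p = 0.522, 0.783 and 0.911). Rtp4, a chaperone of membrane receptors, measured 18.3, 30.9 and 12.8 RPKM in transgenic, 18.2, 16.4 and 11.4 RPKM in LXR DKO libraries and 3.02, 10.6 and 16.8 RPKM in WT libraries. WT 1 was the low one and transgenic 2 the high one. Ifi35 lay between 19.3 and 22.7 RPKM in transgenic, between 15.3 and 21.8 RPKM in LXR DKO and between 12.6 and 24.3 RPKM in WT libraries. Xaf1, a proapoptotic protein gene, lay between 2.99 and 4.43 RPKM in transgenic, between 2.02 and 3.51 RPKM in LXR DKO and between 1.58 and 5.76 RPKM in WT libraries. Ifi44, below the filter, lay between 0.875 and 1.82 RPKM in transgenic, between 0.790 and 1.16 RPKM in LXR DKO and between 0.0519 and 0.690 RPKM in WT libraries, with WT below both others.

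The antigen processing genes had the smallest median log2 fold change of the 8 roles in transgenic minus WT, at 0.11 over 3 genes. Psmb8, an immunoproteasome subunit and the most abundant of them, measured 8.02, 8.59 and 7.44 RPKM in transgenic, 7.56, 8.20 and 8.20 RPKM in LXR DKO libraries and 4.77, 7.81 and 10.6 RPKM in WT libraries. The lowest and the highest value were both in WT. Psmb8 differed by 0.10 ± 0.21 in LXR DKO minus WT, 0.00 ± 0.21 in transgenic minus LXR DKO and 0.11 ± 0.21 in transgenic minus WT (limma, adjusted p = 0.813, 0.999 and 0.772). Psmb9, another immunoproteasome subunit, lay between 1.76 and 2.26 RPKM in transgenic, between 1.73 and 2.22 RPKM in LXR DKO and between 1.34 and 3.36 RPKM in WT libraries. Tap1, a subunit of the peptide transporter, lay between 5.97 and 7.32 RPKM in transgenic, between 5.92 and 7.83 RPKM in LXR DKO and between 5.06 and 7.28 RPKM in WT libraries. Psmb9 and Tap1 share 212 exon bases on opposite strands.

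Across the roles the members shared an order of the libraries, which the heat map shows. WT 1 held the lowest value of 33 of the 35 members, and Bst2 and Ifi27 were lowest in LXR DKO 3. Among all tested genes WT 1 was lowest in 13.0%. Transgenic 2 held the highest value of 19 members, against 7.15% of all tested genes, and WT 3 that of 8, against 16.7%. The members highest in WT 3 were Oas1a, Rsad2, Isg20, Ifi27, Ifi35, Xaf1, Psmb8 and Psmb9.

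**Figure D3:**
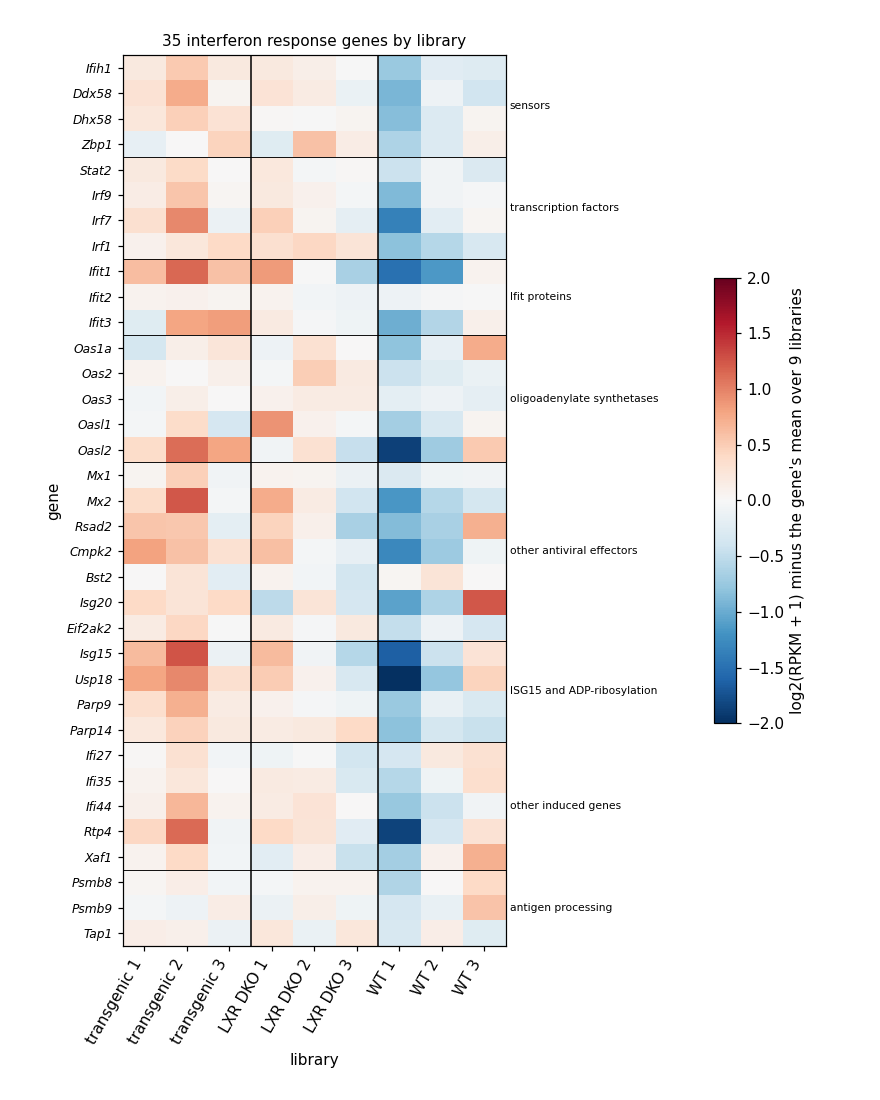
Each of the 35 members (vertical, by role) in each of the 9 libraries (horizontal, by genotype), as log2(RPKM + 1) minus the gene's mean over all libraries, from blue (below the mean) to red (above it). WT 1 is the lowest library for 33 of the 35 members, and transgenic 2 the highest for 19.

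The mean log2(RPKM + 1) over the 35 members was 2.73, 3.04 and 2.65 in the transgenic libraries 1 to 3. It was 2.73, 2.65 and 2.41 in the LXR DKO libraries and 1.71, 2.25 and 2.63 in the WT libraries, in the same numbering. WT 3 thus stood within the range of the LXR DKO libraries and just below the lowest transgenic library. WT 1 and WT 2 stood below every transgenic and every LXR DKO library. The same mean over all tested genes lay between 3.13 and 3.20 in the 9 libraries. Of the 30 tested members 22 were ordered WT 1, WT 2, WT 3 from low to high, as were 17.9% of all tested genes. The median range of log2(RPKM + 1) between the 3 libraries of a genotype was 0.51 over tested members and 0.22 over all tested genes in transgenic, 0.42 and 0.28 in LXR DKO, and 0.90 and 0.32 in WT. A range above 1, which is a factor above 2 on the log2(RPKM + 1) scale, occurred in 5 of the 30 tested members in transgenic, in 4 in LXR DKO and in 13 in WT. Among all tested genes such a range occurred in 2.37% in transgenic, 4.32% in LXR DKO and 9.53% in WT. Within WT the highest library exceeded the lowest 16.2-fold for Ifit3, 13.3-fold for Ifi44, 10.3-fold for Ifit1 and 9.77-fold for Oasl2. Rsad2 and Mx1 are left out of this order, since their lowest WT library held 1 and 3 reads. The ratios of Ifit3 and Ifi44 rest on few reads too, with 6 and 14 reads in WT 1.

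Single libraries moved the counts of members past the threshold. In LXR DKO minus WT the count was 4 of 30 without WT 3, when Cmpk2 and Usp18 joined Irf1 and Parp14, and 1 without LXR DKO 3. Of all tested genes 13% were past the threshold in either direction in the first of these fits and 3.71% in the second, against 10.6% with all 9 libraries. In transgenic minus WT it was 14 without WT 3, 2 without WT 1, 3 without transgenic 1, 1 without transgenic 2 and 3 without transgenic 3. The share of all tested genes past the threshold in either direction in transgenic minus WT moved as well, from 11.9% with all 9 libraries. It was 21.6% without WT 3, 5.81% without WT 1, 4.50% without transgenic 1, 4.77% without transgenic 2 and 3.96% without transgenic 3. Irf1 was called in all of these fits, and in transgenic minus LXR DKO limma with Benjamini-Hochberg adjustment called 0 members in all 18 alternatives.

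Markers of other cells differed between the same libraries. The 8 markers of oviduct epithelium, none of them at 0 in 3 or more libraries, summed to 1389, 1951 and 1813 RPKM in transgenic, 260.5, 722 and 524 RPKM in LXR DKO libraries and 68.1, 120.3 and 1237 RPKM in WT libraries. Ovgp1, an oviduct glycoprotein, made up 76.7% to 95.2% of this sum, and the other 7 markers summed to 94.2 to 134 RPKM in transgenic, 34.5 to 67.4 RPKM in LXR DKO libraries and 11.6 to 112 RPKM in WT libraries. WT 3 was the highest WT library for each of the 8 markers, as it was for the mean of the members. Transgenic 2, the highest library for the mean of the members, was highest of all for Ovgp1 but the lowest transgenic library for 6 of the 8 markers. The lowest library was WT 1 for 4 markers and WT 2 for the other 4. Limma called 1 of the 8, the cadherin gene Cdh1, higher in transgenic minus WT and none in the other comparisons. The part of these cells in the levels of the interferon response genes was not tested.

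The 10 macrophage markers, none of them at 0 in 3 or more libraries, summed to 426, 375 and 524 RPKM in transgenic, 624, 1137 and 740.1 RPKM in LXR DKO libraries and 513, 559.8 and 1229 RPKM in WT libraries. Lyz2 made up 65.3% to 78.9% of the sum. For this sum every transgenic library was below every LXR DKO library. Limma called 5 of the 10 lower in transgenic minus WT and 1 lower in transgenic minus LXR DKO, against 6.72% and 0.0609% of all tested genes lower. WT 3 was the highest and WT 1 the lowest WT library for each of the 10 markers, as for the mean of the members. Transgenic 2, the highest library for the mean of the members, was the lowest of all libraries for 7 of the 10 markers. The 6 markers of dendritic cells did not pass the filter, with Cd209a at 0 in 3 or more libraries, and summed to 0.450 to 0.622 RPKM in transgenic, 0.647 to 1.42 RPKM in LXR DKO libraries and 0.915 to 1.83 RPKM in WT libraries. The 10 T and NK cell markers, with Ncr1 at 0 in 3 or more libraries, summed to 45.9 to 63.8 RPKM in transgenic, 51.5 to 72.6 RPKM in LXR DKO libraries and 45.4 to 48.9 RPKM in WT libraries. Trbc2 and Klrb1c made up 93.5% to 99.6% of this sum, and each of the other 8 markers, among them Cd3e, Cd3d, Cd3g, Cd4 and Cd8a, stayed at or below 1.40 RPKM in every library. The 8 neutrophil markers, with Retnlg at 0 in 3 or more libraries, summed to 9.20 to 14.45 RPKM in transgenic, 6.84 to 23.0 RPKM in LXR DKO libraries and 2.30 to 9.40 RPKM in WT libraries, and 1 of the 4 tested, Mmp8, was higher in transgenic minus WT. Without Mmp8 the other 7 markers summed to 3.02 to 4.65 RPKM in transgenic, 5.46 to 17.8 RPKM in LXR DKO libraries and 2.14 to 5.54 RPKM in WT libraries. The 4 B cell markers summed to 1.835 to 3.06 RPKM in transgenic, 6.85 to 12.1 RPKM in LXR DKO libraries and 3.26 to 43.1 RPKM in WT libraries, and 1 was lower in transgenic minus WT. The 6 endothelial markers, with Emcn at 0 in 3 or more libraries, summed to 2.22 to 2.73 RPKM in transgenic, 3.24 to 5.70 RPKM in LXR DKO libraries and 1.67 to 3.49 RPKM in WT libraries. The part of these cells in the levels of the members was not tested.

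The 10 oocyte markers summed to 459 RPKM in LXR DKO 1 and 779 RPKM in WT 1, and to between 1.11 and 47.0 RPKM in the other 7 libraries. WT 1 had the lowest mean of the members, whereas LXR DKO 1 had the highest of its genotype. Without these 2 libraries limma called 2 members in LXR DKO minus WT, again Irf1 and Parp14, and 3 in transgenic minus WT, which were Irf1, Parp14 and Cmpk2. Of all tested genes 6.97% and 7.60% were then past the threshold in either direction. These shares count rises and falls together, unlike the shares of genes higher given above for all 9 libraries. The median log2 fold change of the tested members in LXR DKO minus WT was then 0.09. The 6 erythroid markers summed to 9881 RPKM in WT 3, the WT library with the highest member mean, and to between 58.6 and 970 RPKM in the other 8 libraries. The part of oocyte and blood RNA in the levels of the members was not tested.

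**Figure D4:**
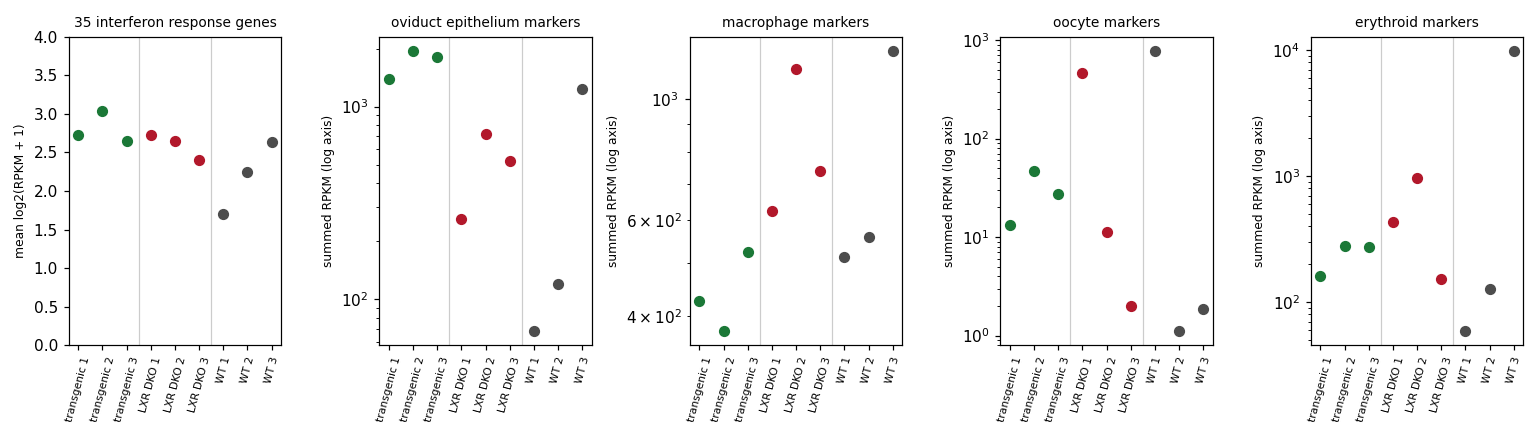
Mean log2(RPKM + 1) of the 35 members (first panel, linear axis) and summed RPKM of 4 lists of markers of other cells (log axes) in each of the 9 libraries, coloured by genotype. Transgenic 2 is highest for the members at 3.04 and WT 1 lowest at 1.71; the oviduct epithelium sum, from 68.1 to 1951 RPKM, consists mostly of Ovgp1.

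The rest of the interferon pathway was examined in 86 further genes, of which 63 passed the filter. In LXR DKO minus WT 8 of the 63 rose and none fell, and in transgenic minus WT 11 rose and 1 fell. In transgenic minus LXR DKO limma with Benjamini-Hochberg adjustment called 0 of the 63, while 1 was higher and 9 were lower at an unadjusted p under the threshold, against 4.71% and 3.39% of all tested genes. The counts for LXR DKO minus WT and transgenic minus WT can be read against 3.47% and 5.15% of all tested genes higher.

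Of the interferons themselves, none of the 10 listed genes passed the filter. Ifnb1, Ifna1, Ifna2, Ifna5, Ifng and Ifnl2 had 0 reads in every library, and a count of 0 allows up to 3 reads. Ifna4, Ifnk and Ifnl3 had at most 2 reads in any library. Ifne, the interferon of reproductive tract epithelium, had 14, 3 and 5 reads in transgenic, 2, 0 and 2 reads in LXR DKO and 0, 1 and 11 reads in WT libraries. With so few reads no difference in interferon RNA was detectable at this depth.

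The receptor genes were expressed in every library. Ifnar1 measured 46.5, 44.3 and 44.5 RPKM in transgenic, 45.0, 45.9 and 51.0 RPKM in LXR DKO libraries and 45.1, 44.0 and 34.7 RPKM in WT libraries. Ifnar2 lay between 21.9 and 22.6 RPKM in transgenic, between 24.0 and 25.8 RPKM in LXR DKO and between 23.7 and 23.8 RPKM in WT libraries. Neither receptor gene passed the threshold in any comparison. Ifngr2, a chain of the receptor for type II interferon, measured 33.4, 31.5 and 31.7 RPKM in transgenic, 38.1, 30.2 and 32.0 RPKM in LXR DKO libraries and 43.6, 43.1 and 39.7 RPKM in WT libraries. It fell by 0.38 ± 0.09 in transgenic minus WT (limma, adjusted p = 0.0371), with all transgenic libraries below WT.

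Stat3, a factor of cytokine signalling, lay between 35.6 and 38.6 RPKM in transgenic, between 34.5 and 39.5 RPKM in LXR DKO and between 33.3 and 34.0 RPKM in WT libraries, and passed in no comparison. Socs3, a feedback inhibitor of cytokine signalling, measured 11.2, 9.64 and 11.4 RPKM in transgenic, 13.3, 17.7 and 15.8 RPKM in LXR DKO libraries and 11.3, 9.76 and 11.5 RPKM in WT libraries. It rose in LXR DKO by 0.48 ± 0.12 (limma, adjusted p = 0.0380), while transgenic minus WT was -0.01 ± 0.12 (limma, adjusted p = 0.963). All LXR DKO libraries were above both other genotypes, although transgenic minus LXR DKO, at -0.49 ± 0.12, missed the threshold (limma, adjusted p = 0.270).

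Of the 13 tested sensing and adaptor genes, 4 were higher in LXR DKO minus WT and 6 in transgenic minus WT. Of all tested genes 3.47% and 5.15% were higher. Adar, the RNA editing enzyme that marks own RNA, measured 10.4, 14.4 and 8.99 RPKM in transgenic, 10.1, 10.1 and 9.63 RPKM in LXR DKO libraries and 5.34, 7.25 and 6.05 RPKM in WT libraries. Every library of both knockout genotypes was above WT, and Adar rose by 0.61 ± 0.16 in LXR DKO minus WT and by 0.75 ± 0.16 in transgenic minus WT (limma, adjusted p = 0.0449 and 0.0225). Trim25, the ubiquitin ligase that activates RIG-I, measured 20.9, 22.4 and 19.0 RPKM in transgenic, 24.1, 18.4 and 18.3 RPKM in LXR DKO libraries and 13.3, 16.0 and 11.0 RPKM in WT libraries. It rose by 0.57 ± 0.15 in LXR DKO minus WT and by 0.61 ± 0.15 in transgenic minus WT (limma, adjusted p = 0.0466 and 0.0356). Ikbke, a kinase that activates interferon regulatory factors, measured 1.62, 1.57 and 2.37 RPKM in transgenic, 1.41, 2.69 and 1.94 RPKM in LXR DKO libraries and 0.317, 0.494 and 1.07 RPKM in WT libraries. It rose by 0.90 ± 0.22 and by 0.83 ± 0.22 in the same comparisons (limma, adjusted p = 0.0354 and 0.0431). None of the Adar, Trim25 and Ikbke libraries of transgenic or LXR DKO overlapped with WT. All of LXR DKO lay above all of WT in 13.1% of all tested genes, and all of transgenic above all of WT in 16.8%.

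Tlr7, an endosomal receptor for single-stranded RNA, differed from the others in its order. It measured 0.909, 1.12 and 1.43 RPKM in transgenic, 2.63, 2.30 and 2.48 RPKM in LXR DKO libraries and 0.840, 1.15 and 1.63 RPKM in WT libraries, so that LXR DKO alone was high. Tlr7 rose by 0.67 ± 0.16 in LXR DKO minus WT (limma, adjusted p = 0.0294), while transgenic minus LXR DKO, at -0.69 ± 0.16, missed the threshold (limma, adjusted p = 0.228). Tlr7 is also expressed by macrophages. Their summed markers were 375 to 524 RPKM in transgenic, 624 to 1137 RPKM in LXR DKO and 513 to 1229 RPKM in WT libraries. The sums of LXR DKO and WT thus overlapped, while every Tlr7 value of WT lay below LXR DKO. The part of macrophages in the level of Tlr7 was not tested. Mavs, Ticam1 and Tlr3, an adaptor of RIG-I, an adaptor of TLR3 and the receptor for double-stranded RNA, passed in transgenic minus WT only of the 3 comparisons. Mavs averaged 20.1 ± 2.89 RPKM in transgenic and 13.6 ± 0.926 RPKM in WT (SD, n = 3 each), a rise of 0.53 ± 0.11 (limma, adjusted p = 0.0230). Tlr3 measured 1.31, 1.31 and 1.59 RPKM in transgenic, 0.550, 0.706 and 0.740 RPKM in LXR DKO libraries and 0.109, 0.202 and 1.01 RPKM in WT libraries. It rose in transgenic minus WT by 0.79 ± 0.21 (limma, adjusted p = 0.0474), and Ticam1 rose by 0.53 ± 0.14 (limma, adjusted p = 0.0468). All 3 missed the threshold in LXR DKO minus WT, at adjusted p = 0.0610 for Mavs, 0.325 for Ticam1 and 0.494 for Tlr3 in limma, and transgenic minus LXR DKO was not past the threshold either.

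**Figure D5:**
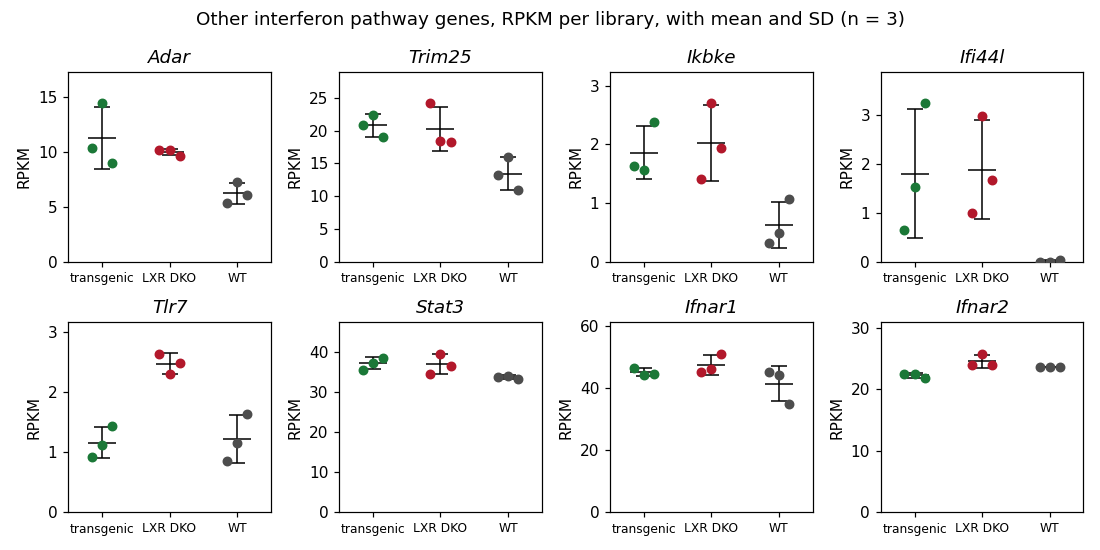
RPKM per library (points) with mean and SD of 3 libraries for 8 further genes of the interferon pathway. Adar, Trim25, Ikbke and Ifi44l lay higher in all transgenic and LXR DKO libraries than in WT, Tlr7 was high in LXR DKO alone, and Stat3, Ifnar1 and Ifnar2 passed the threshold in no comparison.

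Of 22 tested further induced genes, 2 rose in LXR DKO minus WT and 5 in transgenic minus WT, against 3.47% and 5.15% of all tested genes. Ifi44l, a neighbour of Ifi44, measured 0.643, 1.52 and 3.23 RPKM in transgenic, 0.988, 2.98 and 1.66 RPKM in LXR DKO libraries and 0, 0 and 0.0309 RPKM in WT libraries. The WT values stand for 0, 0 and 2 reads, against 41 to 151 reads in transgenic and 57 to 137 reads in LXR DKO, so the fitted fold depends on the pseudocount. On that scale Ifi44l rose by 1.45 ± 0.35 in LXR DKO minus WT and by 1.36 ± 0.35 in transgenic minus WT (limma, adjusted p = 0.0325 and 0.0385). The immunity-related GTPases Igtp and Irgm1, which act on vacuoles of intracellular pathogens, rose in transgenic minus WT by 0.91 ± 0.24 and 1.11 ± 0.30 (limma, adjusted p = 0.0424 and 0.0448). Igtp averaged 13.9 ± 2.65 RPKM in transgenic, 12.0 ± 2.12 RPKM in LXR DKO libraries and 7.11 ± 2.43 RPKM in WT (SD, n = 3 each). Irgm1 averaged 11.2 ± 2.63 RPKM in transgenic, 8.44 ± 2.33 RPKM in LXR DKO libraries and 4.87 ± 2.39 RPKM in WT (SD, n = 3 each). Both genes thus averaged higher in LXR DKO than in WT as well, where they missed the threshold.

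Pml, the organiser of nuclear bodies, measured 8.73, 9.42 and 9.04 RPKM in transgenic, 7.60, 8.14 and 8.97 RPKM in LXR DKO libraries and 6.34, 7.16 and 6.20 RPKM in WT libraries, and rose in transgenic minus WT by 0.41 ± 0.09 (limma, adjusted p = 0.0239). Trim21, a cytosolic antibody receptor, averaged 4.74 ± 0.304 RPKM in transgenic, 4.23 ± 0.228 RPKM in LXR DKO libraries and 3.20 ± 0.589 RPKM in WT (SD, n = 3 each). It rose in transgenic minus WT by 0.46 ± 0.12 (limma, adjusted p = 0.0389) and missed the threshold in LXR DKO minus WT. Tor3a, a torsin ATPase of the endoplasmic reticulum, measured 17.1, 21.4 and 14.4 RPKM in transgenic, 31.2, 18.5 and 20.1 RPKM in LXR DKO libraries and 10.5, 10.9 and 13.5 RPKM in WT libraries. It rose in LXR DKO minus WT by 0.92 ± 0.21 (limma, adjusted p = 0.0268). The transgenic libraries of Tor3a were also all above WT, but transgenic minus WT missed the threshold. H2-K1, a heavy chain of class I major histocompatibility molecules, measured 124, 136 and 114 RPKM in transgenic, 148, 161 and 136 RPKM in LXR DKO libraries and 114, 104 and 112 RPKM in WT libraries. It rose in LXR DKO minus WT by 0.43 ± 0.10 (limma, adjusted p = 0.0257), while transgenic minus WT missed the threshold. H2-K1 was the only 1 of 11 tested antigen presentation genes past the threshold in any of the 3 comparisons.

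The pathway counts moved with single libraries, as did the calls over all tested genes. In LXR DKO minus WT the count of 8 became 0 without WT 1, 2 without WT 2, 15 without WT 3, 1 without LXR DKO 2, 1 without LXR DKO 3, and 4 without transgenic 1 or without transgenic 2. In transgenic minus WT the count of 12 became 2 without WT 1, 4 without WT 2 and 18 without WT 3. It was 6 without LXR DKO 2, 5 without LXR DKO 3, and 1 without any 1 of the transgenic libraries. The 2 without WT 1 were Cd74 and Slfn2, neither among the 12 and both averaging lower in transgenic than in WT. Such counts can include genes that were not called with all 9 libraries. Over all tested genes the share past the threshold in either direction in LXR DKO minus WT lay between 3.71% without LXR DKO 3 and 13% without WT 3. Without WT 1 this share was 5.94%. In transgenic minus WT the same share lay between 3.96% without transgenic 3 and 21.6% without WT 3.

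Several members lie next to each other in the genome, which the choice by name did not use. Rsad2 and Cmpk2 neighbour each other on chromosome 12, Parp14 and Parp9 on chromosome 16 with 66926 bases between them, and Mx1 and Mx2 on chromosome 16. Ifit2, Ifit3 and Ifit1 lie together on chromosome 19, Psmb9, Tap1 and Psmb8 on chromosome 17, and the oligoadenylate synthetase genes in 2 clusters on chromosome 5. Of the 5 members past the threshold Parp14 and Parp9 are the only neighbours. In mean RPKM LXR DKO was level with transgenic for Parp14 and between transgenic and WT for Parp9. For Parp9 neither LXR DKO minus WT nor transgenic minus LXR DKO passed the threshold.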

How the data were processed

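RNA sequencing covered 9 libraries, 3 for each genotype. The authors deposited 1 matrix of RPKM values, and every column of values was used (0 were left out). The transgenic columns differ from the sample descriptions by 1 letter and were assigned through the letters TG and the number. Per the submitters' processing notes the mm10 build, DESeq2 1.2.8, HTSeq 0.5.4p5, HISAT2 2.1.0 and cutadapt were used, without their roles. Not given in the sources used here are the annotation release, whether strand was counted, how multiply mapped reads were treated and which reads scale a library, so overlapping genes and near copies have uncertain values.

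Read numbers were worked back from RPKM with exon lengths of GENCODE M21: 37146 of 37863 genes with a value (98.1%) and 33 of the 35 members, all but Psmb8 and Psmb9, gave whole reads in all libraries to within 0.02 reads. Coordinates are mm10 from the same annotation.

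Values were tested as log2(RPKM + 1) with limma 3.58.1 (R 4.3.3), with a mean-variance trend, all 9 libraries in 1 model and genotype as the factor. Genotypes thus share 1 spread, although WT varied most. Genes with at least 1 RPKM in at least 3 libraries were kept (16422), with Benjamini-Hochberg adjustment over all of them and a threshold of 0.05. Fold changes on this scale understate changes of low genes. The fit was tested on simulated data.

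The members, the pathway list and the marker lists were chosen with earlier results of these data known. Full statistics are given for members past the threshold in any comparison and for the member with the highest mean RPKM in each role, and for Stat2, Irf7, Isg15, Mx2 and Eif2ak2, which were added after their values were seen. Of the pathway genes, those past the threshold, the interferons, Ifnar1, Ifnar2 and Stat3 are named; 1 further gene is not reported here. Alternatives were another pseudocount, no filter, a stricter filter, quantile normalization, voom on the worked-back reads, no trend, only 2 genotypes, the replicate number as a block, and fits without each library and without WT 1 and LXR DKO 1.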

Additional observations from a re-analysis of the deposited data

How the results depend on the processing

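Counts of members and of the other pathway genes past the threshold in limma moved with the libraries and the genes fitted. With 2 members in LXR DKO minus WT, fits without 1 library gave 1 to 4, the stricter filter 1 (Parp14 then not tested) and the 2 genotypes alone 1. With 5 members in transgenic minus WT, fits without 1 library gave 1 to 14, no filter 2, the 2 genotypes alone 2, and leaving out WT 1 and LXR DKO 1 together 3. For the 63 pathway genes the 8 calls of LXR DKO minus WT became 0 to 15 without 1 library, 0 with no filter, 2 with the 2 genotypes alone and 2 without WT 1 and LXR DKO 1. Their 12 calls of transgenic minus WT became 1 to 18 without 1 library, 1 with no filter and 4 with the 2 genotypes alone. Without WT 1 and LXR DKO 1 there were 6, of which Cd74, Ly6e and Slfn2 were not among the 12. The 0 calls of pathway genes in transgenic minus LXR DKO became 0 to 1 without 1 library. They became 2 with the 2 genotypes alone and 1 without WT 1 and LXR DKO 1. Over all genes the 1739 calls of LXR DKO minus WT ranged over 609 to 2140, the 19 of transgenic minus LXR DKO over 6 to 150 and the 1949 of transgenic minus WT over 650 to 3555. With no filter 37863 genes were tested and adjusted over; the cause of the other moves was not tested.

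The replicate number as a block gave 2 members in LXR DKO minus WT, 0 in transgenic minus LXR DKO and 5 in transgenic minus WT, where Ddx58 was called and Cmpk2 was not, and 6, 0 and 10 pathway genes. It gave 1178, 8 and 1513 calls over all genes. Deviations of libraries with the same number correlated between -0.293 and 0.672 and the labels do not say that a number marks a pair, so the libraries were not taken as paired.

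Of the single results of the 30 tested members, 3 lost their call under an alternative in LXR DKO minus WT and 2 gained one. With no filter the 2 members called there were Irf1 and Oas3, which is below the filter, and Parp14 was not. In transgenic minus WT 23 lost and 13 gained a call, counted over members and alternatives, and no called fold change turned its sign. The 5 members below the filter rest on 3 to 347 reads per library.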
